A study of Homo sapiens with 24 samples.

Results

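The dedifferentiated, invasive state of melanoma cells was followed here through 9 marker genes, chosen by name as receptors, transcription factors and matrix genes of the low-MITF state. They are the receptors AXL, NGFR, EGFR and PDGFRB, the factors SOX9, SOX2 and ZEB1, and the matrix genes FN1 and TNC. All 9 were found among the 58735 genes of the count files. Polyadenylated RNA came from HT-144, an established human melanoma line from a metastasis, so the libraries describe 1 line. Cells were transfected with Lipofectamine RNAiMAX for 3 days in medium with an insulin, transferrin and selenium supplement.

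The SREBF1-targeting groups were siSREBF1, a pool of small interfering RNAs at 50 nM, and ASO-SREBF1-S1 and ASO-SREBF1-S4, antisense oligonucleotides at 5 nM. The control groups were mock, labelled as a mock transfection with no reagent named, siNegative, a scrambled siRNA at 50 nM, and ASO-Neg, a non-targeting ASO at 5 nM. Each group was 1 library run on 4 lanes, with 12916478 to 47900277 gene counts after the lanes were summed. ASO-SREBF1-S1 was the deepest library and mock the shallowest. SREBF1, whose product switches on genes of fatty acid and cholesterol synthesis, stood at 54.9, 76.9 and 70.3 CPM in siSREBF1, ASO-SREBF1-S1 and ASO-SREBF1-S4, against 231.5, 249.3 and 217 CPM in mock, siNegative and ASO-Neg. CPM are gene counts scaled to a common library size with TMM factors.

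Melanoma cells can lose the pigment programme set by MITF and SOX10 and take on a state rich in receptor tyrosine kinases, mesenchymal factors and extracellular matrix, which is known for invasion and for tolerance of drugs that inhibit the BRAF pathway. AXL and EGFR mark the most dedifferentiated cells, and NGFR, the low-affinity neurotrophin receptor, marks a state that resembles the neural crest. ZEB1 is a repressor of epithelial genes in the epithelial-mesenchymal transition. Fibronectin, encoded by FN1, and tenascin C, encoded by TNC, are matrix glycoproteins bound by integrins.

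The bases just upstream of the transcription start are shown for the genes on which the results below turn: FN1, higher in every SREBF1-targeting library, and AXL, PDGFRB and ZEB1, each past the 1.5-fold rule in at least 1 matched contrast. RefSeq windows matched 7 of the 9 members, all but NGFR and SOX9. Those shown are the 250 bases before the RefSeq start on GRCh38.p14, 5′ to 3′ on the gene's strand. Capitals mark CACCTG, the E-box bound by ZEB and SNAI factors, or TCACNCCAC, a sterol element bound by SREBP factors, on either strand.
FN1, chr2:215436069-215436318, minus strand: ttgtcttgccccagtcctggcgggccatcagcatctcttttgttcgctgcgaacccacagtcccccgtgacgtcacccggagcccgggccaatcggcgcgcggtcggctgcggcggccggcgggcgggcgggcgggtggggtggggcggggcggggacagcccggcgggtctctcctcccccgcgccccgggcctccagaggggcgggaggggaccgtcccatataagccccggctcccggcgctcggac
AXL, chr19:41218973-41219222, plus strand: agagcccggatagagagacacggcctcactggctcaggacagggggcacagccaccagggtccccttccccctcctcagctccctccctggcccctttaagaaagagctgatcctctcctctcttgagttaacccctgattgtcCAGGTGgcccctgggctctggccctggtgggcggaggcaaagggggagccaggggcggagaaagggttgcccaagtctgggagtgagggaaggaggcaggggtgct
PDGFRB, chr5:150155846-150156095, minus strand: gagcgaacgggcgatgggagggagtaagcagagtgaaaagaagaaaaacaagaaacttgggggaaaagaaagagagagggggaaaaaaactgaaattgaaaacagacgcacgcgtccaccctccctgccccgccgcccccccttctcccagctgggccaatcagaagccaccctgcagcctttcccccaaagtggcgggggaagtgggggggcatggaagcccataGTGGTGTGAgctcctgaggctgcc
ZEB1, chr10:31318167-31318416, plus strand: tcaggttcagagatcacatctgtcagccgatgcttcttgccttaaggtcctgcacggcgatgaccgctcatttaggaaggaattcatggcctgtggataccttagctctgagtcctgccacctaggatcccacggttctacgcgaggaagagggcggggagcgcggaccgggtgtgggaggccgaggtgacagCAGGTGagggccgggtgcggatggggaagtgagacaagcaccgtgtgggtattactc

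The E-box lay 106 to 101 bases upstream of the RefSeq start of AXL and 57 to 52 bases upstream of that of ZEB1. It was in 2 of the 7 member windows searched and in 17.5% of 27305 windows of the same length. The sterol element lay 24 to 16 bases upstream of the RefSeq start of PDGFRB and was also in the SOX2 window, against 0.9% of all windows. The GENCODE coordinates given below start PDGFRB further upstream, at chr5:150155872, so the element lies inside that gene model. SOX2 further held ACAAAG, a SOX motif found in 13.7% of windows. None of the 7 windows held TGANTCA (AP-1, 6.6% of all windows), GGAATG (TEAD, 11.9%), CACGTG (MITF and SREBP, 6.5%) or TCATGTG (MITF, 2.6%), searched on both strands. No pair of matched stretches overlapped. A match of these letters describes the window and was not tested for binding.

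The markers differed widely in level, and the cells kept the pigment factors that the dedifferentiated state lacks. Per kilobase of annotated exons, FN1 stood at 70.5 to 104.1 and TNC at 73 to 102.9 CPM, near SOX10, the neural crest and melanocyte factor, at 92.3 to 111.9. MITF, the master regulator of melanocytes, stood at 53.4 to 72.1 CPM per kilobase. AXL (19.3 to 36.8) and NGFR (10.1 to 26.3) were intermediate on the same scale, ZEB1 (3.38 to 5.31) and SOX2 (2.99 to 4.81) lower, and PDGFRB (0.606 to 1.21), EGFR (0.162 to 0.273) and SOX9 (0.09 to 0.18) lowest. Exon lengths were the union of all annotated isoforms, which for FN1 and EGFR is long and lowers the value.

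**Figure D1:**
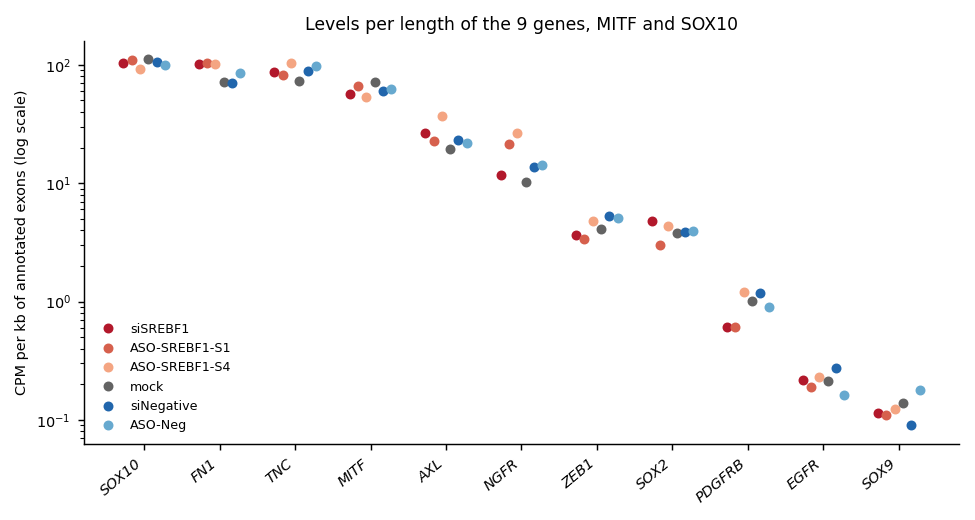
Level per kilobase of annotated exons (CPM per kb, log axis) of the 9 genes and of MITF and SOX10, with 1 point per library. FN1 and TNC lie beside SOX10 and MITF, while PDGFRB, EGFR and SOX9 lie at 1.21 CPM per kb or less.

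The pigment gene PMEL stood at 2048, 2990 and 2223 CPM in siSREBF1, ASO-SREBF1-S1 and ASO-SREBF1-S4, against 3527, 2632 and 2701 CPM in mock, siNegative and ASO-Neg. The name of the dedifferentiated state is therefore used here for the 9 genes and not for these cells. Of other cell types, 6 immune markers summed to 0.891 to 3.01 CPM in targeting and 0.705 to 1.18 CPM in control libraries, with 1 of them at 0 throughout. The 9 fibroblast markers summed to 697 to 1001 CPM in targeting and 727 to 940 CPM in control libraries, most of it from COL1A2 (557.5 to 873.8 CPM over the 6 libraries), and of the defining markers THY1 and PDGFRA were at 1.72 CPM or less in every library. LUM, a matrix proteoglycan, averaged 61.9 ± 10.3 CPM in targeting and 79.7 ± 5.18 CPM in control libraries (SD, n = 3 each), and FAP, a membrane protease, averaged 35.9 ± 3.25 CPM in targeting and 40.5 ± 0.831 CPM in control libraries. Both were lower with sides that did not overlap, 2 of the 8 fibroblast markers tested, as 8.54% of all genes were. Neither passed in edgeR (adjusted p = 0.339 and 0.541). ACTA2, an actin of contractile cells, averaged 26.5 CPM in targeting and 22.4 CPM in control libraries, and COL1A1, COL3A1 and DCN were at 4.02 CPM or less in every library. Of Schwann cell markers, MBP averaged 54.3 CPM in targeting and 67.9 CPM in control libraries, and CDH19 72.3 CPM in targeting and 74.5 CPM in control libraries. The sum of the 6 endothelial markers was 38.2 to 58.1 CPM in targeting and 38.5 to 42.9 CPM in control libraries, most of it KDR, with VWF at 2.52 CPM or less, and that of the 6 keratinocyte markers was 23.1 to 29.2 CPM in targeting and 22.9 to 24.3 CPM in control libraries, most of it KRT10, with KRT14 at 0.882 CPM or less. The part of such markers in the member values was not tested. In bulk RNA, fewer cells of a state and less RNA per cell cannot be told apart.

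FN1 (ENSG00000115414, chr2:215360440-215436073, minus strand, GRCh38 as for all genes here) was the member with the smallest p between the sides. It stood at 1738, 1791 and 1746 CPM in siSREBF1, ASO-SREBF1-S1 and ASO-SREBF1-S4, against 1241, 1214 and 1459 CPM in mock, siNegative and ASO-Neg. Every SREBF1-targeting library lay above every control library. The averages were 1759 ± 28.6 CPM in targeting and 1305 ± 134 CPM in control libraries (SD, n = 3 each). The log2 ratio was 0.43 (SE 0.089) and ranked 77 of 15123 genes by p, but it did not pass in edgeR's quasi-likelihood test (adjusted p = 0.176). DESeq2's Wald test called it (log2 ratio 0.43, adjusted p = 0.00153), so the call depends on the test.

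AXL (ENSG00000167601, chr19:41219223-41261766, plus strand), the receptor of the ligand GAS6, was highest with ASO-SREBF1-S4. It stood at 136, 116 and 189 CPM in siSREBF1, ASO-SREBF1-S1 and ASO-SREBF1-S4, against 99.2, 118 and 113 CPM in mock, siNegative and ASO-Neg. The sides overlapped, because ASO-SREBF1-S1 lay below siNegative, and the counting intervals of siNegative, ASO-SREBF1-S1 and ASO-Neg overlapped in turn. The log2 ratio of targeting over control was 0.42 (SE 0.16, edgeR adjusted p = 0.418).

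NGFR (ENSG00000064300, chr17:49495293-49515008, plus strand) was higher with both ASOs against SREBF1 but not with the siRNA pool. It stood at 48.95, 88.2 and 109 CPM in siSREBF1, ASO-SREBF1-S1 and ASO-SREBF1-S4, against 42, 56.4 and 59.4 CPM in mock, siNegative and ASO-Neg. Both SREBF1 ASOs lay above all other libraries, and siSREBF1 lay between siNegative and mock, its counting interval overlapping that of mock. In the fit with the ASO pair as a class of its own, the log2 ratio of the pair over the 3 controls was 0.90 (SE 0.15) and ranked 49 of 16297 genes by p, with an adjusted p of 0.0666 in edgeR. It passed when lane 1 (adjusted p = 0.0488) or lane 3 (adjusted p = 0.0479) was left out in edgeR, and with DESeq2 (adjusted p = 4e-06). Lanes are splits of the same libraries, so leaving 1 out adds no independent support. The call in edgeR therefore depends on the setting. For siSREBF1 over the ASO pair the log2 ratio was -1.01 (SE 0.21) with an adjusted p of 0.166 in edgeR and of 0.000461 in DESeq2. The siRNA effect minus the ASO effect, each over its own non-targeting reagent, was -0.92 (SE 0.28, adjusted p = 0.9999 in edgeR's quasi-likelihood test), and at an unadjusted p under 0.05 NGFR was the 1 member, where 1.34% of genes passed.

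PDGFRB (ENSG00000113721, chr5:150113839-150155872, minus strand), a receptor of PDGF-B, was lower with siSREBF1 and ASO-SREBF1-S1 and not with ASO-SREBF1-S4. It stood at 4.32, 4.37 and 8.66 CPM in siSREBF1, ASO-SREBF1-S1 and ASO-SREBF1-S4, against 7.21, 8.50 and 6.47 CPM in mock, siNegative and ASO-Neg. siSREBF1 and ASO-SREBF1-S1 were the lowest libraries, and ASO-SREBF1-S4 was the highest, its counting interval overlapping that of siNegative. The log2 ratio of targeting over control was -0.38 (SE 0.27, edgeR adjusted p = 0.665).

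EGFR (ENSG00000146648, chr7:55019017-55211628, plus strand), the epidermal growth factor receptor, was low, at 3.502, 3.02 and 3.69 CPM in siSREBF1, ASO-SREBF1-S1 and ASO-SREBF1-S4, against 3.37, 4.35 and 2.59 CPM in mock, siNegative and ASO-Neg. Its counting intervals overlapped between all neighbours in the order of levels, and its log2 ratio was -0.04 (SE 0.22, edgeR adjusted p = 0.97). These levels rested on 43 to 146 counts per library.

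Of the factors, ZEB1 (ENSG00000148516, chr10:31318495-31529814, plus strand) was lower with siSREBF1 and ASO-SREBF1-S1. It stood at 31.6, 29.2 and 41.6 CPM in siSREBF1, ASO-SREBF1-S1 and ASO-SREBF1-S4, against 35.7, 45.9 and 44.2 CPM in mock, siNegative and ASO-Neg. ASO-SREBF1-S4 lay within the range of the controls, so the sides overlapped. The counting interval of siSREBF1 (28.66 to 34.75 CPM) overlapped that of mock (32.52 to 39.16 CPM). The log2 ratio was -0.31 (SE 0.14, edgeR adjusted p = 0.507).

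SOX2 (ENSG00000181449, chr3:181711925-181714436, plus strand), a factor of stem and neural crest cells, stood at 12.1, 7.52 and 10.9 CPM in siSREBF1, ASO-SREBF1-S1 and ASO-SREBF1-S4, against 9.56, 9.66 and 9.99 CPM in mock, siNegative and ASO-Neg. The controls lay within 1 CPM of each other and the targeting libraries on either side of them (log2 ratio 0.03, SE 0.18, edgeR adjusted p = 0.972). SOX2 lies inside SOX2-OT, a non-coding gene on the same strand, whose annotated exons it does not share. SOX9 (ENSG00000125398, chr17:72121020-72126416, plus strand), a neural crest factor, had 6 to 21 counts per library, 0.354 to 0.705 CPM, and was too low for the test of the 2 sides. Differences of SOX9 were not detectable at this depth.

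TNC (ENSG00000041982, chr9:115019575-115118207, minus strand) had overlapping sides. It stood at 836, 779 and 987 CPM in siSREBF1, ASO-SREBF1-S1 and ASO-SREBF1-S4, against 699.8, 846 and 940.1 CPM in mock, siNegative and ASO-Neg. The lowest value was that of mock and the highest that of ASO-SREBF1-S4 (log2 ratio 0.07, SE 0.12, edgeR adjusted p = 0.89).

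**Figure D2:**
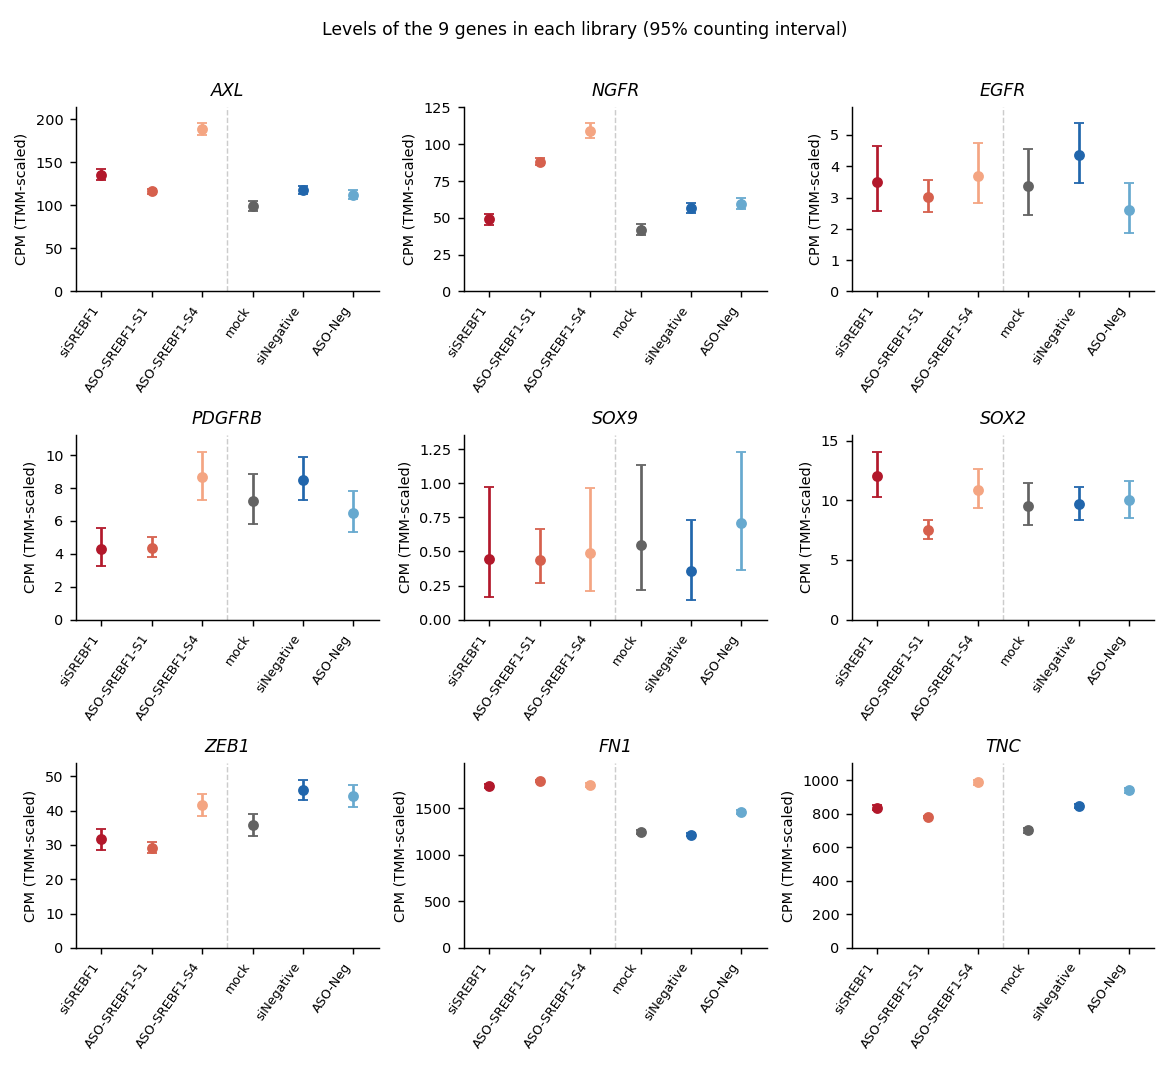
TMM-scaled CPM of each of the 9 genes in each library, with 95% counting intervals as bars. The dashed line parts the SREBF1-targeting libraries (left) from the controls (right). FN1 is the gene whose 3 targeting libraries all lie above the controls, at 1738 CPM or more against 1459 CPM or less.

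Over the 8 members tested, 0 passed an edgeR adjusted p of 0.05, where 0.0595% of all genes did, 0.0198% higher and 0.0397% lower. At an unadjusted p under 0.05 there were 3 members, AXL, NGFR and FN1, where 10.2% of all genes passed. DESeq2 called 1 of them, FN1, where it called 1.17% of all genes. The sides did not overlap for 1 member, where they did not for 17.4% of all genes. The members' median log2 ratio was 0.05, against 0.006 over all genes, with 5 members above 0 and 3 below. That median was -0.04 without ASO-SREBF1-S4, -0.02 without mock, 0.01 without siSREBF1 and 0.19 without ASO-SREBF1-S1. The p-values measure the spread between libraries that received different reagents, since no group was repeated. No member was called in the ASO pair over the controls or in siSREBF1 over the ASO pair by edgeR, where 0.043% of genes were in the first and 0.147% in the second, 0.0552% higher and 0.092% lower. At an unadjusted p under 0.05 there were 3 members in the first, where 11.2% of genes passed, and 1 in the second, where 8.71% did, and DESeq2 called NGFR in both and FN1 in the first.

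Each SREBF1 reagent was then set against its own non-targeting control, a reagent of the same chemistry. These contrasts have 1 library a side and no test. A gene was counted past a rule of 1.5-fold with at least 5 CPM in 1 of the libraries, which 7 members reached. ASO-SREBF1-S1 and ASO-SREBF1-S4 share the ASO-Neg library.

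In siSREBF1 over siNegative, 1 member passed the size rule, where 3.47% of genes did, 1.81% higher and 1.65% lower. It was PDGFRB, lower at a log2 ratio of -0.96 (95% counting interval -1.43 to -0.54). ZEB1 (-0.54, interval -0.71 to -0.37) and FN1 (0.52, interval 0.49 to 0.54) lay just inside the rule. AXL had a log2 ratio of 0.20, NGFR -0.20, SOX2 0.32 and TNC -0.02.

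In ASO-SREBF1-S1 over ASO-Neg, 1 member passed, where 2.8% of genes did, 1.75% lower. It was ZEB1, lower with a log2 ratio of -0.59 (interval -0.72 to -0.47), and 0 to 2 members passed when 1 lane number was left out. NGFR lay just inside the rule at 0.57 (interval 0.47 to 0.67), as did PDGFRB at -0.56 (interval -0.90 to -0.22). SOX2 (-0.41) and TNC (-0.27) were below 0, FN1 was at 0.30 and AXL at 0.05.

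In ASO-SREBF1-S4 over ASO-Neg, 2 members passed, where 4.74% of genes did, 3.26% higher. Both were receptors and higher: NGFR had a log2 ratio of 0.88 (interval 0.76 to 0.99) and AXL of 0.74 (interval 0.66 to 0.83). PDGFRB (0.42), FN1 (0.26) and TNC (0.07, interval 0.04 to 0.10) were above 0, with counting intervals that left it out. The intervals of SOX2 (0.12, interval -0.19 to 0.43) and ZEB1 (-0.09, interval -0.24 to 0.07) included 0. Of the 7 members, FN1 and AXL were above 0 in all 3 contrasts, as 18.1% of genes were, and ZEB1 was below 0 in all 3, as 19.6% of genes were. The interval of AXL with ASO-SREBF1-S1 (-0.03 to 0.12) and that of ZEB1 with ASO-SREBF1-S4 included 0.

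The ASOs share a target and a dose, and between them, 1 library against 1, PDGFRB had the largest log2 ratio. Its counting interval overlapped that of AXL, so the order of these genes is not settled. The log2 ratio of ASO-SREBF1-S4 over ASO-SREBF1-S1 was 0.99 for PDGFRB (interval 0.67 to 1.302), 0.70 for AXL (interval 0.63 to 0.76), 0.53 for SOX2, 0.51 for ZEB1, 0.34 for TNC and 0.31 for NGFR. FN1 was at -0.04 (interval -0.06 to -0.02). SREBF1 itself stood at 70.3 CPM with ASO-SREBF1-S4 and 76.9 CPM with ASO-SREBF1-S1.

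**Figure D3:**
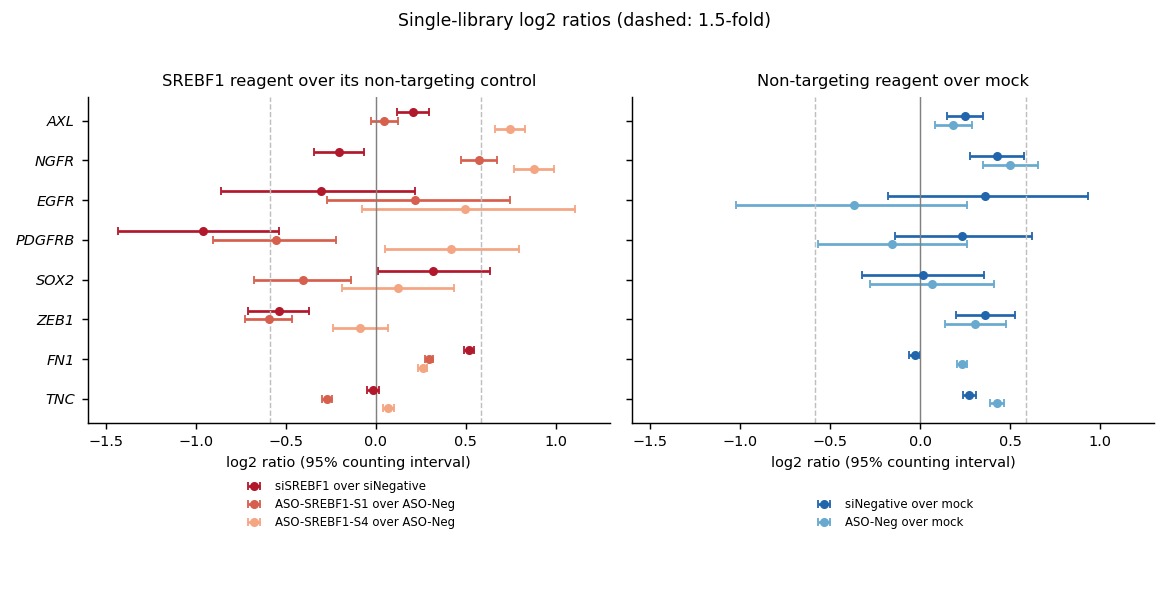
Log2 ratios of 8 members (SOX9 left out for its low counts) for each SREBF1 reagent over its non-targeting control (left) and each non-targeting reagent over mock (right). Bars are 95% counting intervals and dashed lines mark 1.5-fold. FN1 lies right of 0 for all 3 SREBF1 reagents, as does AXL, and PDGFRB lies left of 0 for siSREBF1 and ASO-SREBF1-S1 and right of it for ASO-SREBF1-S4.

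Each non-targeting reagent was also set against mock, 1 library against 1, where the reagent and the variation between libraries cannot be told apart. Of the 7 members at 5 CPM, 6 were above 0 with siNegative and 6 with ASO-Neg, where 49.6% and 51.9% of all genes were. NGFR had log2 ratios of 0.42 and 0.50, TNC of 0.27 and 0.43, ZEB1 of 0.36 and 0.30, and AXL of 0.25 and 0.18 in siNegative and ASO-Neg over mock. No member passed the size rule there, where 0.867% of genes did with siNegative, 0.608% higher, and 1.05% with ASO-Neg, 0.853% lower. Both contrasts share the mock library, the shallowest of the series, so they are not independent.

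The other invasive-state genes mostly lay above 0 over mock and the melanocytic genes below it. Of 37 other invasive-state genes at 5 CPM, 36 were above 0 in siNegative over mock and 30 in ASO-Neg over mock, with median log2 ratios of 0.25 and 0.21, against -0.001 and 0.008 over all genes. WNT5A, a Wnt ligand of the invasive state, stood at 82.6 CPM in siNegative and 67.4 CPM in ASO-Neg, against 51.6 CPM in mock. Of melanocytic genes at 5 CPM, 20 of 21 were below 0 in siNegative over mock and 20 of 20 in ASO-Neg over mock, with medians of -0.30 and -0.27. DCT, an enzyme of melanin synthesis, stood at 667 CPM in siNegative and 811 CPM in ASO-Neg, against 1034 CPM in mock. TYR, the rate-limiting enzyme of that pathway, stood at 201 and 218 CPM in siNegative and ASO-Neg, against 254 CPM in mock, and MITF at 449 and 467 CPM, against 535 CPM in mock. The counts above and below 0 over mock moved by at most 1 gene a list with library totals, RLE factors or unstranded counts.

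The SREBF1 ASOs parted on the same lists. In ASO-SREBF1-S4 over ASO-Neg, 19 of 21 melanocytic genes were below 0 (median -0.28) and 23 of 38 invasive-state genes above it (median 0.09), where 47.4% of all genes were above 0. In ASO-SREBF1-S1 over ASO-Neg, 14 of 20 melanocytic genes were above 0 (median 0.07) and 22 of 38 invasive-state genes below it (median -0.17). Of all genes, 52.4% were above 0 in that contrast. In siSREBF1 over siNegative, 14 of 21 melanocytic genes were below 0 (median -0.09) and 32 of 38 invasive-state genes above it (median 0.14). There, 49.1% of all genes were above 0. The melanocytic count of siSREBF1 was 11 of 21 below 0 with library totals in place of TMM. TYRP1, a melanosome protein, stood at 78.1 CPM with ASO-SREBF1-S4 and 180.3 CPM with ASO-SREBF1-S1, against 120 CPM in ASO-Neg. It was named after its values were seen.

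**Figure D4:**
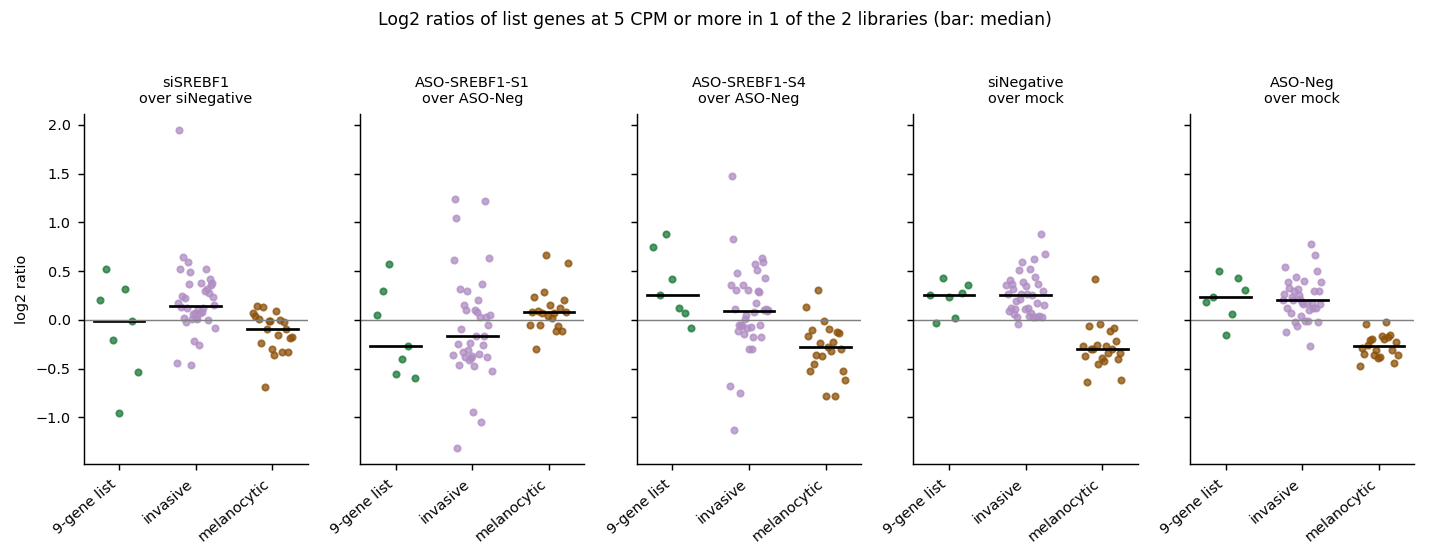
Log2 ratios in the 5 single-library contrasts for the 9-gene list, the other invasive-state genes and the melanocytic genes, with 1 point per gene at 5 CPM or more and the median as a bar. In both contrasts over mock the invasive-state medians lie at 0.25 and 0.21 and the melanocytic medians at -0.30 and -0.27.

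In targeting over control, the other invasive-state genes had a median log2 ratio of 0.13 over 43 genes tested, and the melanocytic genes one of -0.16 over 24. Of these, 1 invasive-state gene passed in edgeR, where 0.0595% of all genes did, with 15 at an unadjusted p under 0.05, where 10.2% of all genes passed. BIRC3, an inhibitor of apoptosis, rose (6.33, 5.38 and 6.39 CPM in siSREBF1, ASO-SREBF1-S1 and ASO-SREBF1-S4, against 2.35, 1.57 and 2.23 CPM in mock, siNegative and ASO-Neg, edgeR adjusted p = 0.0442). That call was lost in edgeR when siSREBF1, ASO-SREBF1-S4, mock, siNegative or ASO-Neg was left out (adjusted p = 0.0646 to 0.33), when lane 2 or 4 was left out, and with chemistry as a term. DESeq2 called 4 genes of the list, where 1.17% of all genes were called: BIRC3, CCN1 and FST higher and ADAM12, a metalloprotease, lower (log2 ratio -0.43, adjusted p = 0.0457 in DESeq2). With no count filter edgeR called 11 of the list and 509 genes in all, against 9 genes in all with the filter. The sides did not overlap for 12 higher and 3 lower genes of the 43, where 8.86% of all genes were higher and 8.54% lower. CCN1, a matricellular protein, stood at 7.97, 15.7 and 13.5 CPM in siSREBF1, ASO-SREBF1-S1 and ASO-SREBF1-S4, against 5.17, 5.51 and 7.58 CPM in mock, siNegative and ASO-Neg (log2 ratio 1.05, edgeR adjusted p = 0.222). THBS1, thrombospondin, stood at 68.6, 163 and 109 CPM in siSREBF1, ASO-SREBF1-S1 and ASO-SREBF1-S4, against 44, 56.6 and 69.7 CPM in mock, siNegative and ASO-Neg (edgeR adjusted p = 0.274). The log2 ratio was 0.48 for AMOTL2 and 0.51 for FST, an activin antagonist (adjusted p = 0.244 in edgeR for both). No melanocytic gene passed in edgeR, with 3 of 24 at an unadjusted p under 0.05, where 10.2% of all genes passed, and 0 called by DESeq2. The smallest p had SLC45A2 (log2 ratio -0.68), a melanosome transporter, ST3GAL6 (-0.22), PLXNC1 (-0.43), a semaphorin receptor, and SLC24A5 (-0.40), a melanosome cation exchanger. With 1 library left out, the median of the invasive-state genes was 0.02 (without siSREBF1, 23 above 0 and 20 below) to 0.21 (without ASO-SREBF1-S1), and 0.06 without mock. The median of the melanocytic genes was -0.29 (without ASO-SREBF1-S1) to -0.10 (without mock).

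CDH13, a cadherin without a cytoplasmic part, is an invasive-state gene that was low with both ASOs and not with the siRNA. It stood at 61.5, 15.4 and 17.5 CPM in siSREBF1, ASO-SREBF1-S1 and ASO-SREBF1-S4, against 42.1, 55.9 and 38.5 CPM in mock, siNegative and ASO-Neg. It fell in the ASO pair over the controls (log2 ratio -1.48, adjusted p = 0.0322 in edgeR) and was higher in siSREBF1 over the ASO pair (log2 ratio 1.91, adjusted p = 0.0205 in edgeR). The call over the controls was lost without mock (adjusted p = 0.232 in edgeR), siNegative (0.0575) or ASO-Neg (0.16), and the call between the reagents without mock (0.115) or ASO-Neg (0.128). For targeting against control its log2 ratio was -0.59 (adjusted p = 0.702 in edgeR).

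Ligands of the member receptors were mostly low. Of 17, 12 were tested and 0 passed in edgeR, where 0.0595% of all genes did, with 4 at an unadjusted p under 0.05, where 10.2% of all genes passed, and 0 called by DESeq2. HBEGF, an EGFR ligand, stood at 11.2, 10.9 and 9.52 CPM in siSREBF1, ASO-SREBF1-S1 and ASO-SREBF1-S4, against 7.13, 5.41 and 7.70 CPM in mock, siNegative and ASO-Neg (log2 ratio 0.65, SE 0.15, edgeR adjusted p = 0.222). BDNF, a neurotrophin that NGFR binds, stood at 7.38, 6.03 and 6.76 CPM against 4.78, 5.82 and 3.12 CPM in the same order (log2 ratio 0.54, edgeR adjusted p = 0.439). Both ligands were higher in every targeting than in every control library, 2 of the 12 tested, as 8.86% of all genes were. AREG (1.24) and PDGFB (0.75) had larger log2 ratios at levels of 5.59 CPM or less and did not pass (edgeR adjusted p = 0.473 and 0.476). TGFA, another EGFR ligand, stood at 176 CPM in ASO-SREBF1-S4 against 87.9 CPM in ASO-Neg, and was named after its values were seen. Of 10 sister and partner receptors none of the 8 tested passed in edgeR, with 1 at an unadjusted p under 0.05, against 10.2% of all genes, and 0 called by DESeq2. That was TYRO3, a relative of AXL, at 87.9, 104.3 and 101 CPM in siSREBF1, ASO-SREBF1-S1 and ASO-SREBF1-S4, against 112, 113 and 111 CPM in mock, siNegative and ASO-Neg (edgeR adjusted p = 0.422). The next by p were ERBB4 (log2 ratio -0.47), MERTK (0.47) and SORT1 (-0.13), a partner of NGFR.

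Among matrix partners, TNS1, a tensin that ties integrins to actin, had the smallest p. It stood at 10.8, 12.4 and 12.3 CPM in siSREBF1, ASO-SREBF1-S1 and ASO-SREBF1-S4, against 26.2, 21 and 19.1 CPM in mock, siNegative and ASO-Neg, so that every targeting library lay below every control. Of the 14 genes tested, 1 lay lower in this way and 1 (SDC4) higher, where 8.54% and 8.86% of all genes did. The log2 ratio of TNS1 was -0.89 (SE 0.13, edgeR adjusted p = 0.0738). It passed the 1.5-fold rule in all 3 matched contrasts. In siSREBF1, ASO-SREBF1-S1 and ASO-SREBF1-S4, each over its control, 1.65%, 1.75% and 1.49% of genes passed lower. SDC4, a syndecan that binds fibronectin, stood at 173, 153 and 167 CPM in targeting libraries in the same order, against 122, 125 and 141 CPM in controls (log2 ratio 0.34, edgeR adjusted p = 0.222). ITGA9, the alpha subunit of a tenascin-binding integrin, stood at 102, 94.1 and 194 CPM in siSREBF1, ASO-SREBF1-S1 and ASO-SREBF1-S4, against 148, 231 and 179.9 CPM in mock, siNegative and ASO-Neg (edgeR adjusted p = 0.546). Like PDGFRB, it was lowest in siSREBF1 and ASO-SREBF1-S1. TNXB, a tenascin, had a log2 ratio of 0.58 at 1.60 CPM or less. No gene of the 14 tested passed in edgeR, with 2 at an unadjusted p under 0.05, where 10.2% of all genes passed. DESeq2 called TNS1 and SDC4, where 1.17% of all genes were called.

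Of 12 other factors of the epithelial-mesenchymal transition and the SOX family, 0 passed in edgeR, with 2 at an unadjusted p under 0.05, against 10.2% of all genes, and 0 called by DESeq2. SNAI2, a repressor of epithelial genes, stood at 42.7, 48 and 41.5 CPM in siSREBF1, ASO-SREBF1-S1 and ASO-SREBF1-S4, against 57, 49.4 and 54 CPM in mock, siNegative and ASO-Neg (log2 ratio -0.27, edgeR adjusted p = 0.324). For SOX6 the log2 ratio was -0.28 (adjusted p = 0.406 in edgeR), for SOX4 -0.12 and for TWIST2 0.29. Epithelial genes that ZEB1 represses were mostly silent, with 11 of 14 under a mean of 1 CPM, and CDH1, E-cadherin, was at 0.224 CPM or less in every library. CLDN4, a tight junction claudin, stood at 6.71, 2.13 and 10.8 CPM in siSREBF1, ASO-SREBF1-S1 and ASO-SREBF1-S4, against 2.04, 2.17 and 2.76 CPM in mock, siNegative and ASO-Neg (edgeR adjusted p = 0.40). For ESRP1, an epithelial splicing factor, the log2 ratio was 0.39, and for PKP3, a desmosome protein, -0.08.

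Of the members at a mean of 5 CPM, AXL, NGFR and PDGFRB had a range of at least 0.8 in log2 CPM over the 6 libraries, and the genes with the most similar profiles were looked up for them among 11049 genes. Likeness was the root mean square distance between log2 CPM centred on each gene's mean. For AXL they were ARL6 (distance 0.068), RRM2B (0.072) and CSRNP1 (0.075). For NGFR they were CCDC113 (0.14), TPT1-AS1 (0.15) and LYPD1 (0.20). For PDGFRB they were IGFBP3 (0.12), COL9A3 (0.14) and RAPGEF3 (0.16). IGFBP3 stood at 656, 639 and 1020 CPM in siSREBF1, ASO-SREBF1-S1 and ASO-SREBF1-S4, against 1030, 1120 and 962 CPM in mock, siNegative and ASO-Neg.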

How the data were processed

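The deposited files hold raw counts for every gene and lane, unstranded and by strand, and per the labels' protocols the libraries were strand-specific with paired 75 bp reads. The submitters' processing notes name GRCh38, FastQC and STAR 2.6.1a, with no role given; the annotation is not given in the sources used here. The 4 summary lines of each file name no gene and were left out; 80.65% to 81.82% of read pairs fell in genes. The reverse-strand counts were used, since the other strand held 6.47% to 7.79%. This matters for AXL, NGFR, EGFR, TNC and ZEB1, whose exons overlap genes on the opposite strand. Gene names and exon lengths came from GENCODE 44, which matched 58207 of the 58735 identifiers, holding 99.93% of counts.

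Lanes of 1 library differed by counting noise (chi-square per degree of freedom 1 to 1.07, against 1.92 to 8.80 between libraries), so the 4 lanes were summed and each group was 1 library. A count of 3 was worth 0.0626 CPM in the deepest and 0.232 CPM in the shallowest library, without TMM factors. Tests used edgeR 4.0.16 in R 4.3.3: TMM, filterByExpr, the 2-sided quasi-likelihood F test and Benjamini-Hochberg adjustment over all genes at 0.05. Single-library log2 ratios used a prior count of 2, with exact 95% counting intervals, which cover counting error only. The scripts were tested on simulated data. Alternatives were DESeq2 1.42.0, RLE factors, no count filter, unstranded counts, chemistry as a term, and each lane or library left out. Their use on CDH13 and BIRC3 singly was added after seeing the data. Members and lists were chosen with earlier results of these data known. Named genes were all members, SREBF1, MITF and SOX10, up to 4 per list by threshold and then p in targeting against control, list genes past 1.5-fold the same way in at least 2 matched contrasts, and the 3 nearest profiles. Pigment genes and others outside the rule (PMEL, TYR, DCT, WNT5A, CDH1) were chosen after their values were seen. Some items of the marker lists are not reported here.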

Additional observations from a re-analysis of the deposited data

Results flagged for a closer look

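PDGFRB and TNC moved opposite ways with the SREBF1 ASOs, each over ASO-Neg, with counting intervals that leave out 0 on both sides. The log2 ratio of ASO-SREBF1-S4 minus that of ASO-SREBF1-S1 was 0.97 for PDGFRB and 0.34 for TNC. Each ASO was 1 library, so the difference was not tested. For TNC the ratios were 0.07 and -0.27.

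Of 54 sets of 4 lane values (9 genes in 6 libraries), 3 held a lane far from the others, where chance flags about 1 in 20. Lane CPM here were scaled to each lane's own gene counts without TMM factors. They are therefore not on the scale of the library CPM above. FN1 was high in lane 2 of siNegative, at 1226.2 CPM against 1187 to 1193 CPM in the other lanes, and low in lane 4 of ASO-SREBF1-S4, at 1754.3 CPM against 1795 to 1800 CPM. SOX9 was at 1.24 CPM in lane 1 of ASO-SREBF1-S4, against 0.248 to 0.259 CPM in the other lanes, on counts of 8 in all.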

How the results depend on the processing

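No paired analysis was possible because the replicate numbers of the labels are the lanes of 1 library, which were summed. The number of genes called by edgeR depended on the settings. In targeting against control, where 9 genes were called, it was 509 with no low-count filter, 170 with DESeq2, 0 with chemistry as a term, and 1 to 103 with a lane or library left out (1 without mock or ASO-Neg, 103 without ASO-SREBF1-S1). For the ASO pair against the controls, with 7 called, it was 563 with no filter, 177 with DESeq2, and 1 to 955 with a lane or library left out (955 without ASO-SREBF1-S1, 868 without ASO-SREBF1-S4). For siSREBF1 against the ASO pair, with 24 called, it was 380 with no filter, 127 with DESeq2, and 2 to 890 with a lane or library left out. For the siRNA effect minus the ASO effect, with 0 called and 217 at an unadjusted p under 0.05, it was 5 with no filter and 0 to 1 with a lane left out. A class left with 1 library is assumed to vary like the others. With no filter FN1, AXL and NGFR passed in targeting against control and in the ASO pair against the controls. That last fit also called FN1 and NGFR with either ASO library left out, AXL without ASO-SREBF1-S1, and PDGFRB and ZEB1 without ASO-SREBF1-S4. For siSREBF1 against the ASO pair, NGFR passed without either ASO library or with no filter, and SOX2 without ASO-SREBF1-S4. A 2-fold rule left 0 members past it in siSREBF1 over siNegative, 0 in ASO-SREBF1-S1 over ASO-Neg and 0 in ASO-SREBF1-S4 over ASO-Neg, and leaving out a lane gave 0 to 2 members for ASO-SREBF1-S1.

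No member's log2 ratio that turned direction passed the threshold in the setting where it turned. In targeting against control, EGFR was at 0.00703 with unstranded counts, 0.0595 with chemistry as a term and -0.212 to 0.182 with a lane or library left out, TNC at -0.0587 with chemistry as a term and -0.0481 to 0.165 with one left out, and SOX2 at -0.112 to 0.234. For the ASO pair against the controls the range over left-out lanes and libraries was -0.24 to 0.156 for EGFR, -0.763 to 0.221 for PDGFRB, -0.372 to 0.158 for SOX2 and -0.0871 to 0.251 for TNC. For siSREBF1 against the ASO pair it was -0.475 to 0.22 for AXL, -0.0767 to 0.208 for EGFR, -0.746 to 0.0354 for SOX9, -0.241 to 0.0976 for TNC and -0.4 to 0.109 for ZEB1. The cause was not tested. Depth limits SOX9 most, with 6 to 21 counts per library.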
